A study of Mus musculus with 10 samples.

Results

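The Reg genes encode small secreted C-type lectins of the gut epithelium, and 5 of them, Reg1, Reg3a, Reg3b, Reg3g and Reg4, were followed here by their symbols among the 35275 genes of the deposited table. All 5 passed the minimum of 0.1 FPKM on average and lie among the 15729 genes tested. FPKM counts the fragments on a gene relative to its length and to all fragments on genes of the library. The only other listed Reg genes, Reg2 and Reg3d, were examined beside them. RNA came from jejunal epithelial cells of 10 adult male C57BL/6 mice, all of the genotype VillinCreERT2;MYO5Bflox/flox. In these mice the villin promoter drives a tamoxifen-inducible Cre in the intestinal epithelium, which removes floxed Myo5b, the gene of a motor protein needed for apical membrane traffic. The 3 control mice received corn oil and kept the gene, so they differ from the others in tamoxifen as well as in Myo5b. The 4 MYO5B-KO mice received 2 mg of tamoxifen and then vehicle, and 3 LPA-treated MYO5B-KO mice received the same tamoxifen and lysophosphatidic acid (LPA, a signaling phospholipid) at 3 mg/kg. Cells were taken on day 4. One line of the label of LPA-treated mouse 1 names vehicle and the next names LPA, and its title placed it in the LPA group.

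As background, Reg3b and Reg3g are made by enterocytes and Paneth cells and are the best known antimicrobial lectins of the mouse small intestine. Reg3g binds peptidoglycan and kills Gram-positive bacteria, and Reg3b acts mainly on Gram-negative bacteria. Both are induced by the microbiota through MyD88 and by the cytokine IL-22 through STAT3. Reg1 was first described in regenerating pancreatic islets and is also made in the small intestinal epithelium, and Reg4 marks enteroendocrine cells and the deep crypt secretory cells of the colon.

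The data split the family. Reg1 was lower in every MYO5B-KO and LPA-treated mouse than in any control mouse and passed the test in both comparisons with control. Reg3a had a lower mean in both groups, but with limma it passed only without the libraries that detected few genes. Reg3b, the member with the highest FPKM in every library, and Reg3g did not pass in any comparison. Reg4 was higher in every LPA-treated mouse than in any control mouse, as were 20.5% of all genes tested, and did not pass the test. Between LPA-treated and vehicle-treated MYO5B-KO mice none of the 5 genes passed the test, and Reg4 came nearest (limma's unadjusted p = 0.0523).

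Between 10949420 and 24470409 reads lay on genes in a library. Control 2 and MYO5B-KO 3 stood apart. They detected 12242 and 12601 genes, against 17309 to 18267 elsewhere, and mitochondrial genes held 17.4% and 18.0% of their reads, against 1.98% to 3.50%. For the 5 members, each comparison with control is also given without both libraries. MYO5B-KO 3 and LPA-treated 1 went against their label as male, with 8.41 and 15.1 FPKM of Xist and 0 reads on 4 Y-linked genes. Myo5b was lower in every MYO5B-KO library than in every control library (log2 fold change -0.96, limma's adjusted p = 0.115). Markers of enterocytes were high and those of stroma and endothelium low in every library, while leukocyte markers differed between groups. The 13 leukocyte markers summed to 1438 to 2411 FPKM in control, 52.0 to 956 FPKM in MYO5B-KO and 159 to 238 FPKM in LPA-treated mice. The summed level of 11 enterocyte markers was 14532 to 43890 FPKM per library, against 3.21 to 15.7 FPKM for 11 markers of stroma and endothelium. Over all genes tested, the median of the log2 fold changes was 0.29 for MYO5B-KO against control, 0.41 for LPA-treated against control and 0.11 for LPA-treated against MYO5B-KO. With median-ratio scaling of the libraries these became 0.039, 0.10 and 0.042.

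In this annotation 6 of the Reg genes lie side by side within 98.0 kb of chromosome 6, with no other annotated gene between them. The coordinates given here are those of the deposited table (GRCm38). From one end to the other the genes are Reg3b (ENSMUSG00000071356, chr6:78370885-78373466, plus strand), Reg3d (ENSMUSG00000068341, chr6:78375874-78378865, minus strand), Reg3a (ENSMUSG00000079516, chr6:78380709-78383839, plus strand), Reg2 (ENSMUSG00000023140, chr6:78405155-78408097, plus strand), Reg1 (ENSMUSG00000059654, chr6:78425983-78428666, plus strand) and Reg3g (ENSMUSG00000030017, chr6:78466269-78468872, minus strand). Reg4 (ENSMUSG00000027876, chr3:98222156-98236748, plus strand) stands alone on chromosome 3. All are protein coding. The longest coding transcripts of Reg1 and Reg2 were the most alike of all pairs, with 82.0% identical bases over 674 aligned, and those of Reg3b and Reg3g shared 73.0% over 747. No stretch of 50 bases of the Reg3a, Reg3b, Reg3g, Reg4 or Reg3d transcripts occurs in a transcript of any other gene. In Reg1 3.65% of such stretches do, and in Reg2 4.34%, but none of them in another Reg gene.

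The sequences just before the start sites are shown for the 4 members between which the family split, since neighbours of one cluster had different fold changes. They come from RefSeq (GRCm38.p6), read 5′ to 3′ on the strand of the gene, and all 7 Reg genes had an entry. Capitals mark the letters TATAAA and TTCNNNGAA, the latter the palindrome recognized by STAT factors, found on either strand, and no matches overlapped. The window searched was the 250 bases before the start. For Reg1 and Reg3b only the part outside longer annotated exons is printed (250 to 54 and 178 to 1 bases before the start). In another annotation (GENCODE M21) both of these stretches lie inside the genes, after an earlier start.
Reg1, chr6:78425733-78425929, plus strand: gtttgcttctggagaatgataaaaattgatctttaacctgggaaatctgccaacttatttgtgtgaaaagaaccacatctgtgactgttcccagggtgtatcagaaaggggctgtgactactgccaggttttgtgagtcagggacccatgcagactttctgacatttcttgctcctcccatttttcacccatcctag
Reg3a, chr6:78380459-78380708, plus strand: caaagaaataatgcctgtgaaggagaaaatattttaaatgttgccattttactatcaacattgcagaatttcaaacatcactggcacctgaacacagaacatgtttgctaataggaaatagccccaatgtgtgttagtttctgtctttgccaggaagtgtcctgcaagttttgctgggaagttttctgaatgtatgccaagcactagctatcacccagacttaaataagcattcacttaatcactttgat
Reg3b, chr6:78370707-78370884, plus strand: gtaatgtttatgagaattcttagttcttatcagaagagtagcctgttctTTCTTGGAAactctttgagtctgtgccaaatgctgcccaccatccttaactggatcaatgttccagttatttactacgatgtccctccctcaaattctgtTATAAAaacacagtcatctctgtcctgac
Reg3g, chr6:78468875-78469124, minus strand: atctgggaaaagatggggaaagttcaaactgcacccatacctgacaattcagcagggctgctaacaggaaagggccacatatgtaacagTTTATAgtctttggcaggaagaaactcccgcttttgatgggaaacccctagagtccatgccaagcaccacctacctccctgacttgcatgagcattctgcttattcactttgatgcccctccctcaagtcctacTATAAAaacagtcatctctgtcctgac
The letters TATAAA stand 29 to 24 bases before the start of Reg3b and 27 to 22 bases before that of Reg3g, and the same letters on the other strand stand 161 to 156 bases before the latter. In Reg1 they lie 30 to 25 bases before the start, in an annotated exon beyond the stretch printed, and in Reg3a they were not found. Of 32851 windows of all genes, 12.4% hold them. The STAT letters were found 129 to 121 bases before the start of Reg3b and, as TTCCCAGAA, 238 to 230 bases before that of Reg3d, in 2 of the 7 Reg windows and in 7.02% of all windows. The letters AGATAA, bound by GATA factors, were found in the window of Reg4 alone among the 7 and in 9.99% of all windows. The Reg3b and Reg3g windows were 70.0% identical over 247 aligned bases, and those of Reg3a and Reg3g 70.1% over 201, with a range of 47.5% to 70.1% over the 21 pairs.

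Reg3b had the highest FPKM of the family in every library. Control mice 2, 4 and 5 held 22993, 4930.4 and 9212 FPKM of it, MYO5B-KO mice 3, 5, 6 and 7 held 27587, 6119, 17134 and 26054 FPKM, and LPA-treated mice 1, 4 and 5 held 8599, 14768 and 36423 FPKM. By FPKM it ranked between 1 and 10 among all genes, and it ranked 1 in MYO5B-KO 7 and LPA-treated 5. The ranges of the 3 groups overlapped in part. MYO5B-KO 3 and 7 and LPA-treated 5 lay above every control mouse, and control 4 lay below all other mice. The spread within each group was wide, with the highest mouse 4.66, 4.51 and 4.24 times the lowest in control, MYO5B-KO and LPA-treated mice. In LPA-treated 5 it took 2.76% of all reads on genes (95% Clopper-Pearson interval 2.76% to 2.77%, which covers counting error only). The log2 fold change was 0.71 for MYO5B-KO against control (standard error 0.76, limma's adjusted p = 0.669) and 0.72 for LPA-treated mice against control (standard error 0.82, limma's adjusted p = 0.693). Leaving out control 2 and MYO5B-KO 3 gave 1.05 and 1.31 (limma's adjusted p = 0.413 and 0.303). Over all libraries the interval for MYO5B-KO mice, -0.98 to 2.40, reaches to both sides of 0.

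Reg3g was next to Reg3b in FPKM in every library but control 4, where Reg1 was higher than Reg3g. Control mice 2, 4 and 5 held 1160.5, 1382 and 1463 FPKM, MYO5B-KO mice 3, 5, 6 and 7 held 737, 944, 2947 and 4701 FPKM, and LPA-treated mice 1, 4 and 5 held 1425, 1762 and 2344 FPKM. The control mice lay close together (1335 ± 157 FPKM, SD, n = 3), whereas MYO5B-KO mice lay on both sides of them, 2 below and 2 above (2332 ± 1867 FPKM, SD, n = 4). The log2 fold change was 0.41 in MYO5B-KO and 0.44 in LPA-treated mice against control (limma's adjusted p = 0.769 and 0.761). With control 2 and MYO5B-KO 3 left out it was 0.73 and 0.34 (limma's adjusted p = 0.464 and 0.742). The deposited length of Reg3g, 2089 bases, takes in a retained-intron transcript, while its only coding transcript has 771 bases. Levels of Reg3g set beside other genes are therefore 2.71 times lower than by the coding transcript, which leaves comparisons between mice as they are.

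Within a library, Reg3b stood 3.57 to 19.8 times above Reg3g in control mice, 5.54 to 37.5 times in MYO5B-KO mice and 6.04 to 15.5 times in LPA-treated mice, on FPKM. By coding transcript length the ratio was 1.28 to 13.4 over the 10 libraries. Control 2 and MYO5B-KO 3 held the largest ratios, 19.8 and 37.5. In both of these libraries Reg3b was at 87.2% and 93.0% of the reads on the 5 Reg genes, and Reg1, Reg3a, Reg3g and Reg4 were each the lowest of their own group. The part that the low number of detected genes had in this was not tested.

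**Figure D1:**
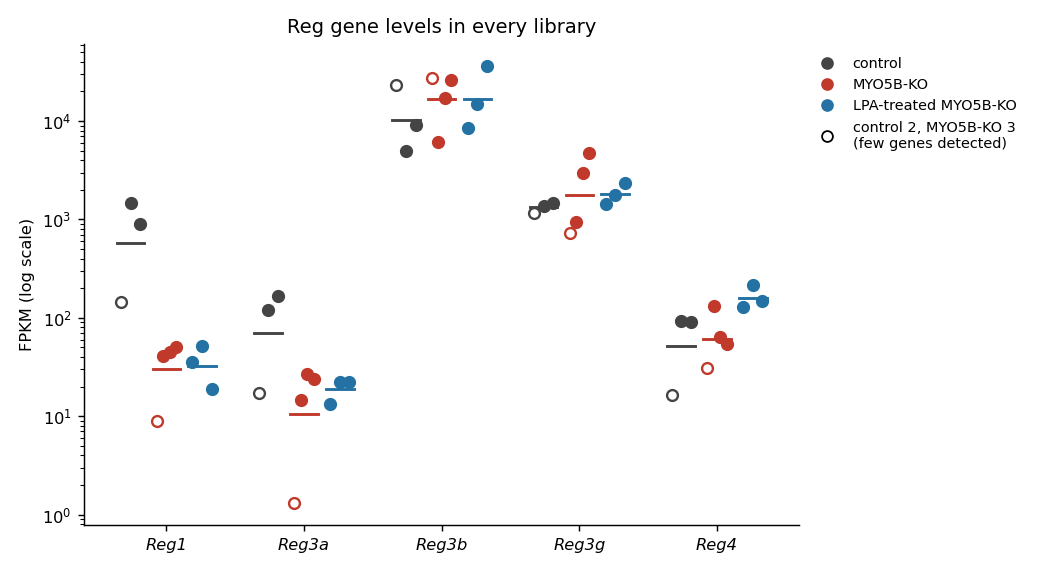
FPKM of the 5 Reg genes on a log axis, 1 point per mouse (3 control, 4 MYO5B-KO, 3 LPA-treated MYO5B-KO), with bars at the geometric mean of each group and open points for control 2 and MYO5B-KO 3. For Reg1 the highest MYO5B-KO or LPA-treated point, 51.8, lies below the lowest control point, 144, while for Reg3b and Reg3g the groups overlap.

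Reg1 fell in MYO5B-KO mice. Control mice 2, 4 and 5 held 144, 1483 and 907 FPKM, whereas MYO5B-KO mice 3, 5, 6 and 7 held 8.91, 40.9, 45.1 and 50.3 FPKM. LPA-treated mice 1, 4 and 5 were in the same low range, at 35.9, 51.8 and 18.8 FPKM. No MYO5B-KO or LPA-treated mouse reached the lowest control mouse. The level was 19.1-fold lower in MYO5B-KO than in control mice on the log2(FPKM + 0.1) scale (log2 fold change -4.26, standard error 0.82, limma's adjusted p = 0.0323), and -4.54 relative to the median of all genes. In LPA-treated mice it was 17.6-fold lower (log2 fold change -4.14, standard error 0.88, limma's adjusted p = 0.0426). Reg1 was thus 1 of 5 members past an adjusted p of 0.05 in each of these comparisons, where 2.01% and 2.32% of all genes tested passed, 0.884% and 0.776% in the lower direction. It was also the only member whose groups did not overlap in the lower direction, which held for 6.2% of all genes in MYO5B-KO and 6.38% in LPA-treated mice. In bulk RNA of isolated epithelium, fewer cells making a transcript and less transcript per cell cannot be told apart.

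The Reg1 difference stayed negative in all 22 alternative fits of MYO5B-KO against control. With each of the 10 mice left out in turn it ranged from -5.26 to -3.58, but it passed only without control 2 or MYO5B-KO 3 (limma's adjusted p = 0.0110 and 0.0372), and lay just above the threshold to 0.132 without any of the others. For LPA-treated mice against control it likewise passed only without one of those mice (limma's adjusted p = 0.0120 and 0.0186), with 0.0613 to 0.172 otherwise. Without both libraries the difference was larger, -4.68 in MYO5B-KO mice (limma's adjusted p = 0.000607) and -5.14 in LPA-treated mice (limma's adjusted p = 0.000236). That fit leaves control 4 and 5 as the only control mice, and both mice left out were the lowest of their group in Reg1. On the recovered reads edgeR gave adjusted p = 0.00750 and DESeq2 3.46e-11 for MYO5B-KO against control.

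Reg3a was lower than Reg1 in all libraries but LPA-treated 5. Its level was 17.3, 121 and 167 FPKM in control 2, 4 and 5, then 1.31, 14.6, 27.0 and 24.2 FPKM in MYO5B-KO 3, 5, 6 and 7, and finally 13.4, 22.4 and 22.1 FPKM in LPA-treated 1, 4 and 5. Control 2 lay inside the range of the other groups, and the other control mice lay above every MYO5B-KO and LPA-treated mouse. The log2 fold change was -2.71 in MYO5B-KO mice (standard error 1.04, limma's adjusted p = 0.209) and -1.90 in LPA-treated mice (standard error 1.11, limma's adjusted p = 0.421). Without control 2 and MYO5B-KO 3 it was -2.74 and -2.91 (limma's adjusted p = 0.00400 and 0.00189). In these fits 2 of 5 members, Reg1 and Reg3a, passed, both lower, where 6.52% and 9.98% of all genes passed. On the recovered reads of all 10 libraries DESeq2 called Reg3a as well (adjusted p = 0.00390 and 0.0227), and edgeR did not (adjusted p = 0.0780 and 0.153). Over the 10 libraries Reg1 and Reg3a had a Pearson r of 0.87 on log2 levels, and 0.94 over the 8 others. These libraries come from 3 groups and differ in depth, so the value is a description.

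The reads on the family were divided unevenly. Reg1 took 14.3% and 6.35% of the reads on the 5 genes in control mice 4 and 5, but 0.552% in control 2 and between 0.0304% and 0.463% in the MYO5B-KO and LPA-treated mice. Reg3b took 47.0% to 93.0%. The 5 genes together held 0.797% to 2.00% of all reads on genes in control mice, 0.679% to 2.97% in MYO5B-KO mice and 0.967% to 3.27% in LPA-treated mice. The summed Reg output thus overlapped between groups while its makeup shifted away from Reg1.

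**Figure D2:**
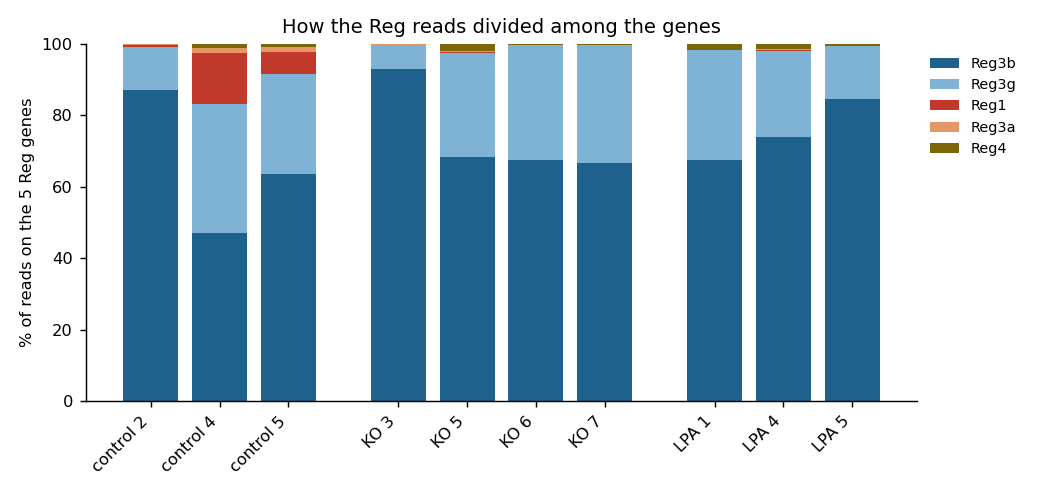
Share of the reads on the 5 Reg genes that each gene took, as stacked bars from 0 to 100% for each of the 10 mice (KO, MYO5B-KO mice with vehicle; LPA, LPA-treated MYO5B-KO mice). Reg3b is the largest part in every bar, and Reg1 is above 5% only in control mice 4 and 5.

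The neighbours of Reg3a in the cluster had other fold changes. Reg3d lies between Reg3b and Reg3a and was measured at a low level. It was at 0, 0.415 and 0.803 FPKM (0, 5 and 11 reads) in control mice 2, 4 and 5. MYO5B-KO mice 3, 5, 6 and 7 held 0, 4.75, 7.45 and 3.51 FPKM (0, 64, 119 and 62 reads), and LPA-treated mice 1, 4 and 5 held 2.04, 3.18 and 5.28 FPKM (39, 43 and 55 reads). Only MYO5B-KO 3, with 0 reads, broke the separation from control. The log2 fold change was 2.41 in MYO5B-KO (limma's adjusted p = 0.393) and 3.22 in LPA-treated mice (limma's adjusted p = 0.305). Without control 2 and MYO5B-KO 3 it was 2.90 and 2.30 (limma's adjusted p = 0.0131 and 0.0201). At such counts these values depend on the pseudocount of 0.1.

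Reg2 stayed near the limit of detection. It had 0, 2 and 1 reads in control mice 2, 4 and 5, then 0, 10, 3 and 0 reads in MYO5B-KO mice 3, 5, 6 and 7 and 14, 11 and 5 reads in LPA-treated mice 1, 4 and 5. Its highest level was 0.919 FPKM, and a count of 0 allows up to 0.396 FPKM (3 reads in MYO5B-KO 3). It passed in no comparison.

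**Figure D3:**
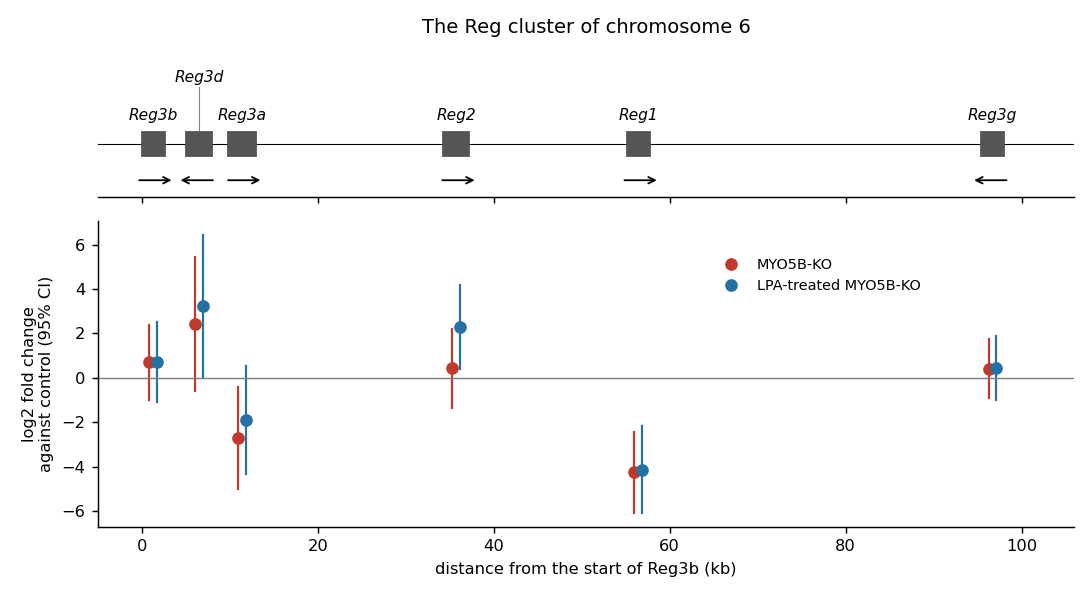
The 6 Reg genes of chromosome 6 drawn to scale by distance in kb from the start of Reg3b, with arrows for the strand, above the log2 fold change of each gene against control with its 95% interval. Reg1 at -4.26 and -4.14 and Reg3a at -2.71 and -1.90 lie below 0, and Reg3d at 2.41 and 3.22 lies above it between Reg3b and Reg3a.

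Reg4 was the only one of the 5 members whose LPA-treated mice all lay above the control mice. Control mice 2, 4 and 5 held 16.6, 92.3 and 90.0 FPKM, MYO5B-KO mice 3, 5, 6 and 7 held 31.2, 131, 63.7 and 54.7 FPKM, and LPA-treated mice 1, 4 and 5 held 128, 216 and 148 FPKM. MYO5B-KO 5 alone kept the groups with and without LPA from separating. The log2 fold change was 1.63 for LPA-treated mice against control (standard error 0.68, limma's adjusted p = 0.265) and 1.38 against MYO5B-KO (standard error 0.63, unadjusted p = 0.0523, limma's adjusted p = 1). In the fit without control 2 and MYO5B-KO 3 these were 0.81 and 1.06 (limma's adjusted p = 0.201 and 0.434). It was thus 1 of 5 members that lay higher than control without overlap, where 20.5% of all genes tested did. Outside these 5, Reg2 and Reg3d did so too. In MYO5B-KO mice no member did, against 11.0% of all genes. The Reg4 difference between MYO5B-KO and control mice was 0.25, and it turned to -0.24 without control 2 and MYO5B-KO 3 and to -0.043 with median-ratio scaling. The 10 goblet cell markers summed to 11904 to 21716 FPKM in LPA-treated and 7279 to 11910 FPKM in MYO5B-KO mice, and all 10 had log2 fold changes above 0 without any passing the test. The 12 enteroendocrine markers summed to 417 to 1152 FPKM and 293 to 862 FPKM, and 11 of them had log2 fold changes above 0, again with none past the test. Both sums overlapped between these groups. The median log2 fold change was 0.68 for the goblet and 0.64 for the enteroendocrine markers. Without control 2 and MYO5B-KO 3 it was 0.31 and 0.67. The part of these cells in the Reg4 values was not tested.

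Between LPA-treated and vehicle-treated MYO5B-KO mice no member passed, and the same was true of all genes (0.0% by limma). At an unadjusted p under 0.05 there were 459 genes but none of the 5. Reg4, at 0.0523, was positive in all 22 alternatives and under that level in several of them, among them median-ratio scaling (unadjusted p = 0.0209), quantile normalization (0.0388), the fit without control 2 and MYO5B-KO 3 (0.0114), and edgeR (0.0190) and DESeq2 (0.0112) on the recovered reads. Its adjusted p passed in none of the 22. Over all genes edgeR and DESeq2 called 0 and 7. The log2 fold changes were 0.12 for Reg1 (95% interval -1.71 to 1.94), 0.81 for Reg3a (-1.48 to 3.10), 0.01 for Reg3b (-1.68 to 1.70) and 0.04 for Reg3g (-1.30 to 1.37). These intervals reach past a change of 1 on the log2 scale in both directions. That of Reg4, at 1.38, ran from -0.017 to 2.78, and with median-ratio scaling from 0.24 to 2.36. The groups overlapped for all 5 members, and 4.16% of all genes tested did not overlap in either direction. Without control 2, MYO5B-KO 3 and LPA-treated 1 a total of 865 genes passed, none of them a Reg gene. In that fit Reg4 had the value nearest to the threshold (log2 fold change 1.22, limma's adjusted p = 0.0808).

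**Figure D4:**
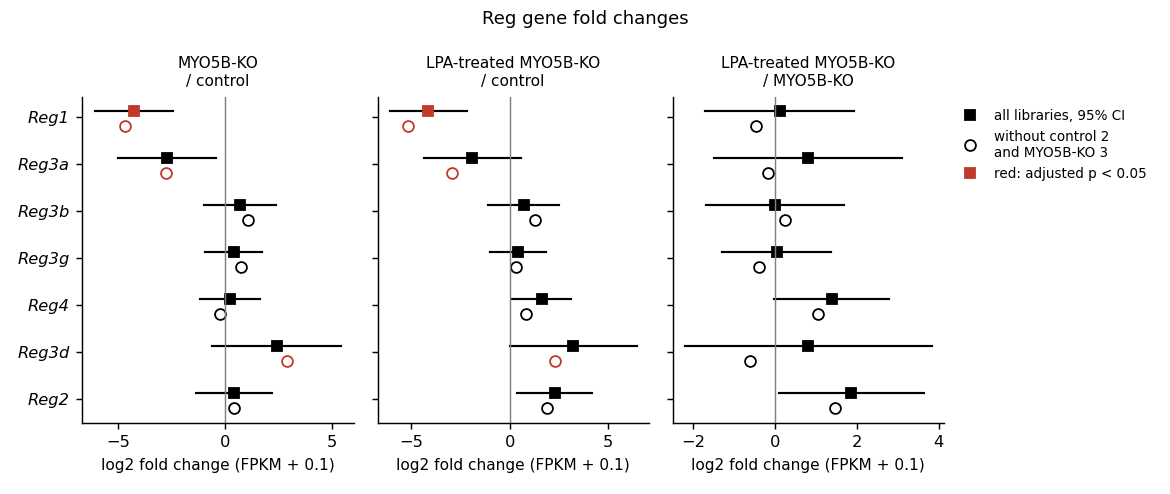
Log2 fold changes of the 7 Reg genes in the 3 comparisons, as squares with 95% intervals over all 10 libraries and as open circles without control 2 and MYO5B-KO 3, red where the adjusted p is under 0.05. Over all libraries only Reg1 is red, at -4.26 and -4.14, and without both libraries Reg3a and Reg3d are red as well.

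Of the cytokines that induce Reg genes, Il22, Il17a, Il17f and Il6 were at 0 reads in every control and MYO5B-KO library, and Il22 reached at most 0.156 FPKM in LPA-treated mice. The RNA came from isolated epithelial cells, so cytokine transcripts in other cells of the tissue may be missed. Of 12 such genes 5 were tested and none passed in any comparison, and the highest were Il18 (129 ± 43.0 FPKM in control mice, SD, n = 3) and Il33 (11.6 ± 2.60 FPKM). None of 17 tested receptor and signaling genes passed either. Stat3, which carries the IL-22 signal, was at 20.9 ± 1.70 FPKM in control mice (SD, n = 3) and 22.4 ± 4.61 FPKM in MYO5B-KO mice (SD, n = 4).

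Few of the other genes known to respond to IL-22 or STAT3 passed the test. Of 17 tested, 1 rose in MYO5B-KO and 2 rose in LPA-treated mice against control, with a median log2 fold change of 0.01 and 0.80 beside 0.29 and 0.41 over all genes. Between LPA-treated and MYO5B-KO mice 16 of the 17 lay above 0, with a median of 0.77 beside 0.11 over all genes and none past the test. That median was 0.23, with 12 of 17 above 0, once control 2 and MYO5B-KO 3 were left out. Lrg1, a secreted leucine-rich glycoprotein of the acute phase, rose from 0.261 ± 0.226 FPKM in control mice (SD, n = 3) to 15.4 ± 16.3 FPKM in MYO5B-KO mice (SD, n = 4) and 22.9 ± 24.4 FPKM in LPA-treated mice (SD, n = 3). Its log2 fold changes against control were 5.05 and 5.77 (limma's adjusted p = 0.0376 and 0.0247). Lcn2, which binds bacterial siderophores, rose in LPA-treated mice by 4.67 on the log2 scale (limma's adjusted p = 0.0460) and had 3.18 in MYO5B-KO mice (limma's adjusted p = 0.117). Fut2, which fucosylates surface glycans, had 3.19 and 4.33 (limma's adjusted p = 0.117 and 0.0580). Fut2 passed in both comparisons with control when control 2 and MYO5B-KO 3 were left out (3.74 and 3.95, limma's adjusted p = 0.0122 and 0.00569), and Lcn2 then had 1.90 and 3.61 (limma's adjusted p = 0.196 and 0.0299). In that fit 3 of the 17 genes were higher and 1 lower in MYO5B-KO mice, and 4 higher and 1 lower in LPA-treated mice. Reg3b and Reg3g, which belong to the same known response, had 0.71 and 0.41 in MYO5B-KO mice.

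Among 24 other secreted antimicrobial and barrier genes tested, none passed in MYO5B-KO mice, and in LPA-treated mice Lcn2 rose and Pigr fell. This list shares genes with that of IL-22 or STAT3, among them Lcn2 and Dmbt1, so the counts of these lists are not separate. Pigr, the receptor that carries IgA into the lumen, was at 2928 ± 2403 FPKM in control mice (SD, n = 3) and 346 ± 140 FPKM in LPA-treated mice (SD, n = 3), or -2.86 on the log2 scale (limma's adjusted p = 0.0418). It had -2.46 in MYO5B-KO mice (limma's adjusted p = 0.0565). Without control 2 and MYO5B-KO 3, Pigr, Mptx1 and Slpi were lower and Dmbt1 higher in MYO5B-KO mice (limma's adjusted p = 0.0189, 0.0208, 0.0208 and 0.0436), and 2 genes were higher and 3 lower in LPA-treated mice. The median of the list was -0.11 and 0.28 in the 2 comparisons. Zg16, a goblet cell lectin that aggregates Gram-positive bacteria and the most abundant gene of the list, was at 5540.5 ± 775 FPKM in control and 4598 ± 1033 FPKM in MYO5B-KO mice. Of 3 proposed or known receptors for Reg proteins, Cd44 rose in LPA-treated mice (log2 fold change 1.92, limma's adjusted p = 0.0471), with 1.77 in MYO5B-KO mice (limma's adjusted p = 0.0510). Extl3 and Egfr did not pass, with 0.42 and 0.73 in MYO5B-KO mice. Leaving out control 2 and MYO5B-KO 3, Cd44 passed in MYO5B-KO mice too (1.86, limma's adjusted p = 0.0159), and Egfr passed in LPA-treated mice (1.37, limma's adjusted p = 0.0366).

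**Figure D5:**
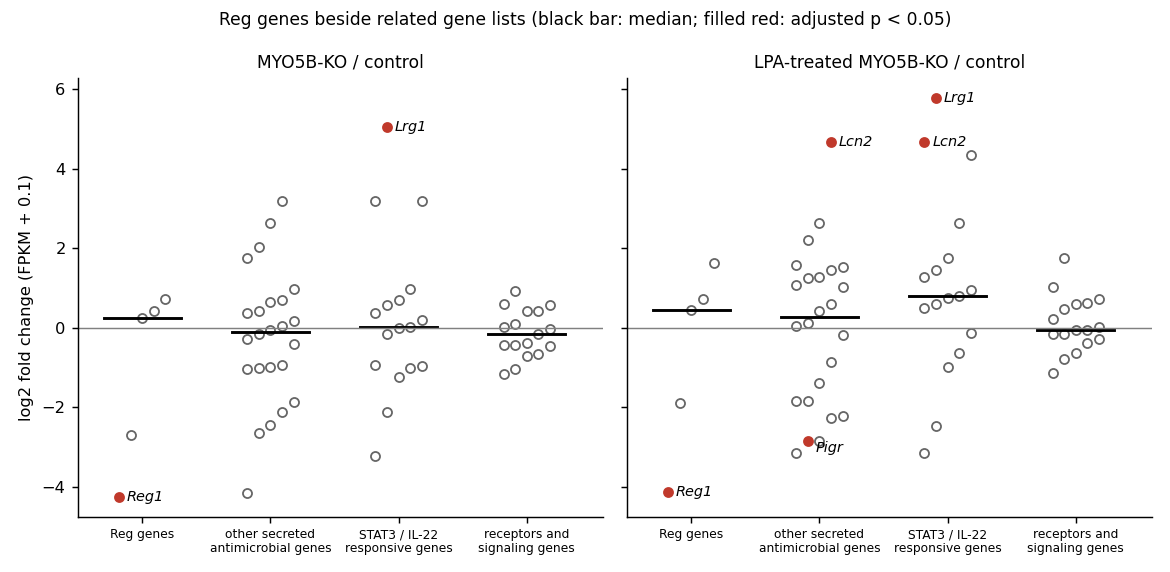
Log2 fold change against control of each tested gene in 4 lists, 1 point per gene with the list median as a black bar, for MYO5B-KO mice and for LPA-treated MYO5B-KO mice. Filled red points passed an adjusted p of 0.05, Reg1 and Lrg1 in the first and Reg1, Pigr, Lcn2 and Lrg1 in the second. Genes in several lists, among them Lcn2, are drawn in each.

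Some leukocyte markers fell in the comparisons in which Reg1 fell. The summed level of 13 leukocyte markers was 1438 to 2411 FPKM in control, 52.0 to 956 FPKM in MYO5B-KO and 159 to 238 FPKM in LPA-treated mice, and 3 of the 13 fell in each comparison with control (4 and 6 without control 2 and MYO5B-KO 3). The enterocyte markers summed to 31826 to 42380 FPKM in control, 14532 to 27322 FPKM in MYO5B-KO and 23102 to 43890 FPKM in LPA-treated mice, where LPA-treated 4 was above every control mouse. Of the 11, 1 fell in MYO5B-KO mice (Lct, the gene of lactase) and 2 in LPA-treated mice, and 2 and 4 without control 2 and MYO5B-KO 3. Paneth cell markers, 12 tested, summed to 4306 to 11159 FPKM in control, 4047 to 7151 FPKM in MYO5B-KO and 1376 to 4840 FPKM in LPA-treated mice. None of them passed over all libraries, and 5 were lower in LPA-treated than in control mice without control 2 and MYO5B-KO 3. Between LPA-treated and MYO5B-KO mice 11 of the 12 had log2 fold changes below 0, with none past the test. Their median was -1.38, beside 0.11 over all genes, and -1.42 without control 2 and MYO5B-KO 3. All 8 proliferation markers had log2 fold changes above 0 in MYO5B-KO mice, with none past the test (1 without those libraries). Of 12 genes of pancreatic acinar cells, another source of Reg transcripts, 10 were at 0 reads in every control library, and only Clps, at 72.2 ± 52.1 FPKM in control mice (SD, n = 3), was high enough to be tested. The 12 summed to 13.3 (control 2) to 112 FPKM in control, 18.1 to 40.1 FPKM in MYO5B-KO and 4.65 to 29.6 FPKM in LPA-treated mice. Clps had log2 fold changes of -0.92 and -2.35 against control, neither past the test. Without control 2 and MYO5B-KO 3 it had -1.70 and -3.32, and passed as lower in LPA-treated mice only. The part of the leukocyte, enterocyte, Paneth cell and pancreatic markers in the Reg1 and Reg3a values was not tested.

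For each member, the 3 genes most like it in level over the 10 libraries were sought among the 10575 genes that averaged 1 FPKM or more, by Pearson's r on log2 values. For Reg1 they were Cyp2c68 (r = 0.99 over 10 libraries and 0.99 over 8), a gene listed as Pbld1 (0.98 and 0.98) and Wipf3 (0.98 and 0.98). Cyp2c68 encodes a cytochrome P450. For Reg3a they were Crim1 (0.97 and 0.95), Ccl25 (0.96 and 0.95), the chemokine gene of small intestinal epithelium, and Sdhb (0.96 and 0.96), a subunit gene of succinate dehydrogenase. For Reg3g they included Nlrc5 and Gbp2, with r of 0.91 and 0.90 over 10 libraries and 0.88 and 0.87 over 8. For Reg3b the values over 10 libraries were 0.92, 0.86 and 0.86 for Tcf7l2, Gm26764 and a gene listed as RP23-184B11.7. For Reg4 they were Nt5c (0.98 and 0.93), ENSMUSG00000023307, named March5 in the reference (0.97 and 0.97), and Arl6ip5 (0.97 and 0.94). None of the 5 members was among the 3 most alike of another. Between members, Reg3b and Reg3g had an r of 0.34 over 10 libraries and 0.80 over the 8 without control 2 and MYO5B-KO 3. The libraries share group, depth and composition in these values, and they are descriptions only.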

How the data were processed

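RNA-seq of jejunal epithelial cells from 10 mice was analysed. The authors deposited FPKM per gene and library for 35275 genes, and read counts for part of the genes. Per the labels, the submitters' processing notes name STAR 2.5, TopHat, HTSeq 0.6.1 and DESeq2 for GRCm38 (mm10), without roles, and replicates were not pooled. With the deposited gene length, in bases, FPKM turned back into whole reads: 100% of values up to 200 reads were whole within 0.1, and 63 of 63 deposited counts equalled them. Genes that averaged 0.1 FPKM or more were compared as log2(FPKM + 0.1) in limma 3.58.1 (R 4.3.3). The 3 groups were fitted together with a variance trend, two-sided, with Benjamini-Hochberg adjustment over all 15729 genes. This fit was also run on simulated counts with the same dispersion for every gene. Those held no libraries like control 2 and MYO5B-KO 3, so they do not show how the test behaves on these data. The reads were also tested with edgeR 4.0.16 and DESeq2 1.42.0. Other scalings, pseudocounts and filters and fits without single libraries were tried as alternatives. Fold changes on this scale understate those of low genes. Nothing in the labels says whether mice shared litters, so p-values measure the spread between these mice.

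The Reg genes, the other lists, the marker lists and the tests were chosen with earlier results of these data known. Beyond the Reg genes, the text names those of each list that passed an adjusted p of 0.05 or were among its most abundant, and the 3 genes most like each member, of which 1 is not reported here. Fut2, Stat3, Mptx1 and Slpi were named after their values were seen. Promoter windows came from RefSeq (GRCm38.p6) and transcripts from GENCODE M21. Against the latter, the coordinates of Reg1 and Reg2 differ at both ends, and those of Reg3a and Reg3b at an end. The GENCODE starts of Reg1 and Reg2, 78422711 and 78395623, lie before the windows searched, which are thus inside these genes. That of Reg3b, 78370657, lies within its window. The stretch printed for Reg3b, with its STAT and TATAAA letters, is thus inside the gene as well. Columns holding the authors' own comparisons and pathway results were not used.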

Additional observations from a re-analysis of the deposited data

How the results depend on the processing

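Over the alternatives to the fits of single Reg genes, 391 kept their direction and their side of an adjusted p of 0.05, 23 no longer passed, 12 newly passed and 39 turned direction, none of the last past the threshold. The count of Reg genes that passed against control, 1 in each comparison, was 0 in both without a filter or with only the compared groups in the fit, 2 in both with DESeq2 or without control 2 and MYO5B-KO 3, 0 in both without the libraries lacking Y-linked reads, and 2 in both without all 3 libraries. With mice left out in turn it was 0 to 1 in both. The fits with only the compared groups or with a mouse left out rest on fewer samples, and the fit without a filter on 22484 genes. Over all genes, the 316 calls of MYO5B-KO against control became 188 without a filter, 598 after median-ratio scaling, 804 after quantile normalization, 54 with the compared groups only, 1830 by DESeq2, 1032 without control 2 and MYO5B-KO 3, 1794 without all 3 libraries and 44 to 448 with a mouse left out. The 365 calls of LPA-treated against control became 626 after quantile normalization, 243 with the compared groups only, 1489 by DESeq2, 1579 and 2410 without 2 and 3 libraries, and 75 to 719 with a mouse left out. LPA-treated against MYO5B-KO gave 7 by DESeq2 and 865 without all 3 libraries, against 0. Control and LPA-treated mice share the numbers 4 and 5, which nothing in the labels ties to a litter or day. With these as a replicate block 0 genes and 0 Reg genes passed, and Reg1 had -5.21 (limma's adjusted p = 0.159, on 1 residual degree of freedom). No paired analysis was possible for the other comparisons because they share 1 number. In log2 fold changes of MYO5B-KO against control, Reg4 turned to -0.043 after median-ratio scaling, -0.14 by edgeR, -0.16 by DESeq2, -0.24 without 2 or 3 libraries and spanned -0.57 to 0.67 with mice left out, where Reg3g spanned -0.065 to 0.83 and Reg2 -0.25 to 0.83. Between LPA-treated and MYO5B-KO mice, Reg1 turned to -0.047 after quantile normalization, -0.011 by edgeR, -0.47 without control 2 and MYO5B-KO 3, and -0.53 without the libraries lacking Y-linked reads or all 3, and spanned -0.47 to 0.51 with mice left out. Reg3a turned to -0.17 without 2 libraries (-0.17 to 1.25 with mice left out). Reg3b turned to -0.074 after median-ratio scaling, -0.11 by edgeR and -0.13 by DESeq2 (-0.56 to 0.49). Reg3g turned to -0.047 after median-ratio scaling, -0.19 after quantile normalization, -0.36 by edgeR, -0.34 by DESeq2, -0.38 without control 2 and MYO5B-KO 3 and -0.21 without the libraries lacking Y-linked reads or all 3 (-0.38 to 0.51). Reg3d turned to -0.078 by edgeR, -0.030 by DESeq2, -0.60 without control 2 and MYO5B-KO 3 and -0.28 without the others or all 3 (-0.60 to 1.48). The cause was not tested for any of these. Depth limits Reg2 and Reg3d, whose highest counts were 14 and 119 reads.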
